A study of Mus musculus with 6 samples.

Results

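Nuclear factor κB (NF-κB) genes were followed through loss and return of the epithelial state in EpH4, a near-normal mouse mammary epithelial cell line. The genes were taken by name as the 5 NF-κB subunits (*Rela*, *Relb*, *Rel*, *Nfkb1* and *Nfkb2*) and 5 inhibitors and regulators (*Nfkbia*, *Nfkbie*, *Nfkbiz*, *Bcl3* and *Tnfaip3*). All 10 were found among the 17428 genes of the table, and all 10 passed the filter on low values that left 13893 genes to test. RNA was sequenced from untreated E cells, from M cells exposed to TGFβ1 for 7 days, and from RE cells, which were M cells kept for another 4 days in normal medium after TGFβ1 was taken away. There were 2 libraries of each, which the study describes as biological replicates. All 6 came from the same cell line grown with serum and insulin, so every group shares that background and the results are those of 1 line in culture. E vs. M sets cells given TGFβ1 beside untreated cells, and M vs. RE sets cells after its removal beside cells still exposed. E vs. RE sets the reverted cells beside the cells that never saw it. No untreated cells matched in days to M or RE are labelled, so TGFβ1 and time in culture cannot be told apart.

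NF-κB proteins bind DNA as pairs of subunits. RelA, RelB and c-Rel carry a transactivation domain, while the products of *Nfkb1* and *Nfkb2* are made as long precursors (p105 and p100) that are processed to p50 and p52. In resting cells the dimers are held in the cytoplasm by IκB proteins, and inflammatory signals lead to the phosphorylation and destruction of IκB, which frees the dimers to enter the nucleus. Many genes that NF-κB switches on encode its own inhibitors, so that the response limits itself. In epithelia the pathway is best known for driving chemokines, acute-phase proteins and survival genes.

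The DNA motif that NF-κB binds, the κB site, was looked for in the promoters of these genes, since self-regulation of this kind works through such sites. RefSeq promoters (GRCm38.p6) were at hand for 7 of the 10 genes, with 10 start sites. They were not at hand for *Nfkb1*, *Relb* and *Nfkbiz*. In the 250 bases upstream of the start, on both strands, the κB consensus of 10 letters was found for 5 of the 7 genes (*Rel*, *Nfkb2*, *Nfkbia*, *Nfkbie* and *Tnfaip3*), and in 7.25% of all 32851 promoters. A gene was counted with a match at any of its starts, while the percentage counts single promoters, so the units differ. Each of the 5 genes had a match at its first start. A narrower form has 3 G followed by any 2 bases, 3 T and 2 C. The base after the 3 G is A or G in the consensus but open in this form. At consensus matches, the narrower form was found for 4 of the 7 (*Rel*, *Nfkb2*, *Nfkbia* and *Tnfaip3*). Counted anywhere in the window, it was in 1.41% of all promoters, so these 2 counts are not alike. For *Rela* and *Bcl3* the consensus was not found in this window, and the narrower form was not looked for apart from it. The sequences around the match are shown for an NF-κB subunit and for *Nfkbia* and *Nfkbie*, the IκB genes with a match. They are given in the direction of the gene, with the match in capitals.
*Rel*, chr11:23771031-23771081, minus strand: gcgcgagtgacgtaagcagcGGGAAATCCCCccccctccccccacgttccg
*Nfkbia*, chr12:55492648-55492696, minus strand: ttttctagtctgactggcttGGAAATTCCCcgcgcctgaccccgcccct
*Nfkbie*, chr17:45555574-45555623, plus strand: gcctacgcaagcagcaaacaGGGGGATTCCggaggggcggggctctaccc

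Positions are counted back from the start, the base before it being -1. The *Rel* stretch runs from -112 to -62, and its capitals cover 2 overlapping matches. The *Nfkbia* stretch runs from -49 to -1, and its capitals, from -29 to -20, read GGGAATTTCC on the opposite strand, which is the narrower form. The *Nfkbie* stretch runs from -126 to -77. *Tnfaip3* held GGGACACCCC from -125 to -116 and, on the opposite strand, the narrower form GGGGATTTCC from -12 to -3. *Nfkb2* held GGGAATTCCC from -39 to -30 and the narrower form GGGGCTTTCC from -11 to -2. A match describes the letters and does not show that a protein was bound there.

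**Figure D1:**
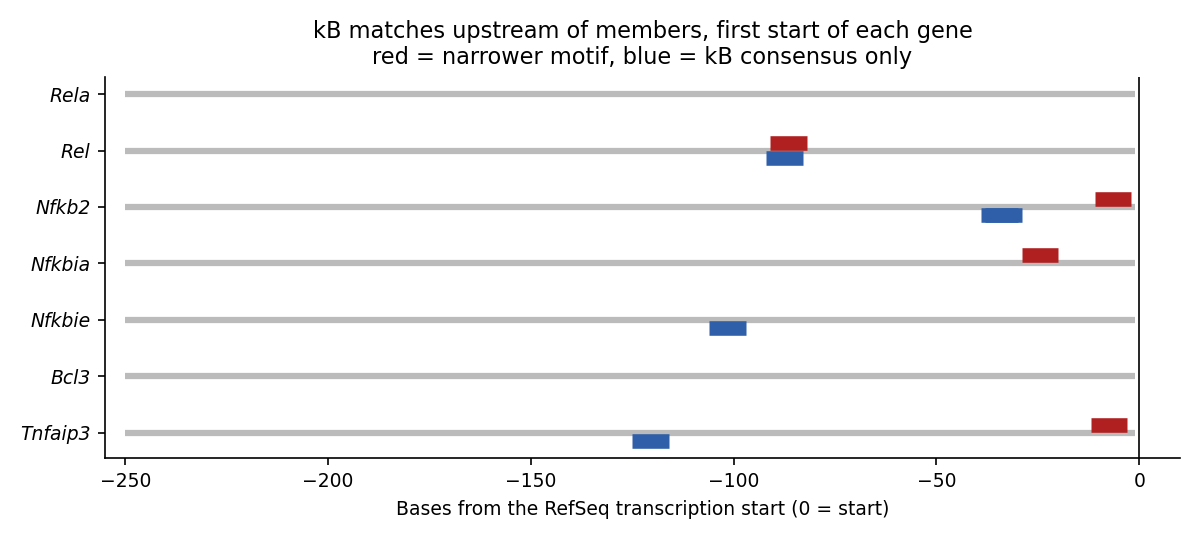
Position of κB consensus matches in the 250 bases upstream of the start sites of the 7 genes that the promoter table holds. The horizontal axis is the distance from the first start of each gene in bases, and each box is a match, in red where it also has the narrower form. *Rel*, *Nfkb2*, *Nfkbia*, *Nfkbie* and *Tnfaip3* have matches, and *Rela* and *Bcl3* have none.

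The deposited values are coverage, that is, sequenced bases summed over each gene, and they are given below as parts per 1000000 (ppm) of the library after normalization. The libraries held the equivalent of 35782513 to 47928557 reads of 50 bases. A gene with 3 reads in a library would stand at 0.0635 to 0.0781 ppm, far below all 10 genes, and this floor covers counting error only. The 2 E libraries differed from each other more than the other pairs, with an SD of the log2 difference over genes of 0.558 against 0.318 for M and 0.309 for RE. The 7 luminal epithelial markers were present in all libraries, and their summed level was 1641 to 2027 ppm in E, 1362 to 1393 ppm in M and 925 to 971 ppm in RE. The sum hides markers that moved apart. From M to RE the log2 fold change was -1.32 for *Krt8* and -0.97 for *Krt18*, but 2.49 for *Elf3*. It was 0.56 for *Cldn7*, 0.32 for *Cldn3*, 0.03 for *Epcam* and -0.02 for *Cdh1*. *Krt8* was higher in M than in E (log2 0.67). Of 9 leukocyte markers found in the table, 6 stood at or below the floor in each E library. The count was 4 and 3 in M, and 4 and 5 in RE. *Ptprc*, which defines leukocytes, did so in all 6 libraries. *Coro1a* stood above the floor in all 6 (0.157 to 0.494 ppm). *Itgam* stood above it in the M and RE libraries (0.144 to 0.204 ppm) but not in E. The sum of the 9 leukocyte markers was 1.86 to 2.20 ppm in E, 26.6 to 30.8 ppm in M and 2.78 to 3.35 ppm in RE, almost all of it in M from *Csf1r*. *Lyz2*, a lysozyme gene of myeloid cells, was a DEG in E vs. RE (0.191 and 0.130 ppm in E, 0.771 and 0.651 ppm in RE, log2 1.64, limma adjusted p = 0.00947). The sum of 5 endothelial markers was 0.370 to 0.623 ppm in E, 2.71 to 2.73 ppm in M and 0.493 to 0.539 ppm in RE. Most of it in M was *Cdh5*, the gene of VE-cadherin, at 2.33 and 2.07 ppm in M, at 0 in both E libraries and at 0.0423 and 0.0910 ppm in RE, a DEG in E vs. M and in M vs. RE. The part of these markers in the results below was not tested. In bulk RNA of this kind, fewer cells expressing a gene and less RNA per cell cannot be told apart.

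**Figure D2:**
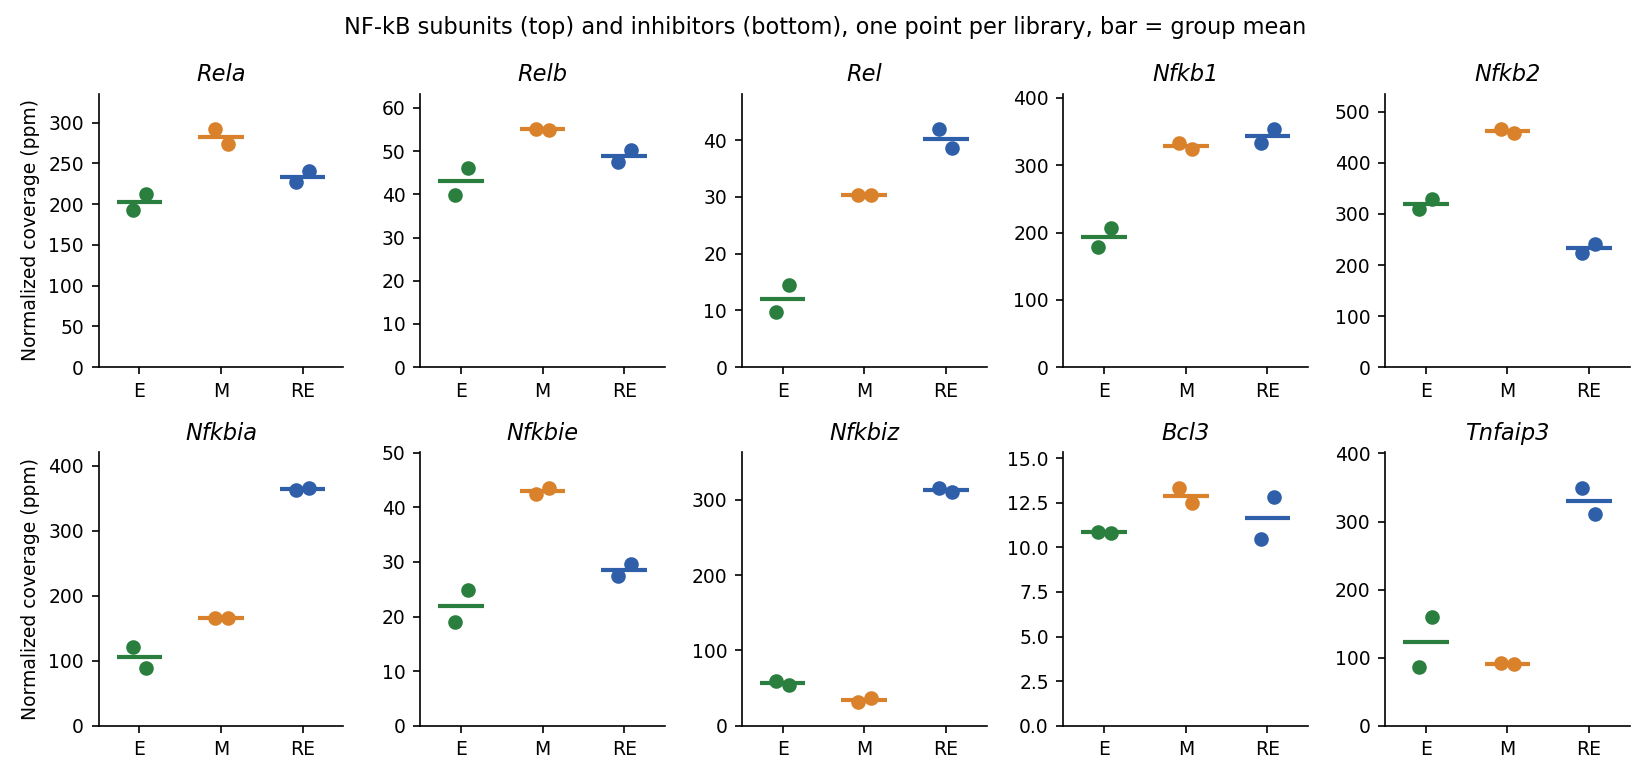
Normalized coverage of the 10 genes in each library, in ppm on linear axes that start at 0. Each point is 1 library (2 each of E, M and RE) and the bar is the group mean. *Nfkbiz*, *Nfkbia*, *Tnfaip3* and, by a smaller step from M, *Rel* are highest in both RE libraries, while *Nfkb2* is lowest there. *Nfkb1* is about as high in M as in RE.

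Among the subunits, *Rel* and *Nfkb1* were higher in both M and RE than in E, and *Nfkb2* was lower in RE than in M. *Rel*, which encodes c-Rel, the subunit best known from lymphocytes, was at 9.64 and 14.4 ppm in E, at 30.3 and 30.4 ppm in M, and at 41.9 and 38.6 ppm in RE. No E library reached the level of any M or RE library. The mean rose 2.52-fold from E to M (log2 fold change 1.36, SE 0.20, limma adjusted p = 0.0017) and was 3.34-fold higher in RE than in E (log2 1.76, SE 0.20, limma adjusted p = 0.00125). The step from M to RE was small (log2 0.41, SE 0.20, limma adjusted p = 0.167). Without the first or second M library the log2 stayed at 1.36 or 1.35, but the E vs. M call was lost. The fit shares 1 spread over all libraries. With an M or RE library left out, the wider E pair weighs more in it and fewer libraries are left to estimate it. The part of each in the lost calls was not tested. A call lost when a library is left out does not by itself mean that a fold change moved.

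*Nfkb1*, the gene of p105 and p50, was at 179 and 207 ppm in E, at 333 and 324 ppm in M, and at 333 and 353 ppm in RE. The M and RE libraries formed a single band above E. The mean in M was 1.70 times that in E (log2 0.77, SE 0.13, limma adjusted p = 0.0035), and in RE it was 1.78 times that in E (log2 0.83, SE 0.13, limma adjusted p = 0.0044). These changes passed the p threshold of 0.01 but not the fold threshold of 2 used for DEGs. M and RE differed by 0.06 on the log2 scale (SE 0.13, limma adjusted p = 0.756). With scaling by library totals only, E vs. M was at a log2 of 0.47 and did not pass (limma adjusted p = 0.0183). With only the 2 groups fitted it did not pass either (limma adjusted p = 0.0164). Leaving out either M or either RE library took both E vs. M and E vs. RE over the p threshold (limma adjusted p from 0.0166 to 0.0591).

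*Nfkb2*, the gene of p100 and p52 and the substrate of the non-canonical pathway, was at 309 and 330 ppm in E, at 466 and 459 ppm in M, and at 223 and 242 ppm in RE. Both RE libraries lay below both E libraries, and M lay above both. The RE mean was 0.503 of the M mean (log2 -0.99, SE 0.13, limma adjusted p = 0.00111), which passed the p threshold and fell just short of the fold threshold. Without any 1 of the 4 M and RE libraries this difference no longer passed the p threshold. With 1 library left out, its log2 ran from -1.05 to -0.94. E vs. M (log2 0.53, limma adjusted p = 0.0132) and E vs. RE (log2 -0.46, limma adjusted p = 0.032) did not pass. In a newer annotation (GENCODE vM21), 18.1% of the exon bases of *Nfkb2* overlap genes on the opposite strand, among them *Psd*, and whether strand was used in summing is not given, so reads of the 2 strands cannot be told apart there.

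*Rela* and *Relb* had no difference past the threshold. *Rela*, which encodes p65, the transactivating partner of p50, was at 193 and 213 ppm in E, at 292 and 274 ppm in M, and at 227 and 240 ppm in RE. Its groups did not overlap, with M highest, but E vs. M gave a log2 of 0.48 (SE 0.13, limma adjusted p = 0.0207) and E vs. RE a log2 of 0.21 (95% interval -0.09 to 0.51). *Relb*, the partner of p52, was at 39.9 and 46.2 ppm in E, at 55.09 and 55.001 ppm in M, and at 47.5 and 50.3 ppm in RE. Its log2 fold change was 0.36 in E vs. M (95% interval 0.04 to 0.67, limma adjusted p = 0.0675) and 0.19 in E vs. RE (95% interval -0.13 to 0.50). With scaling by library totals only, the E vs. M log2 was 0.18 for *Rela* and 0.06 for *Relb*.

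Levels of different genes were compared per kb of the longest transcript. On this scale *Nfkb2* was the highest subunit in E (mean 83.1 ppm per kb) and M (120.3), followed by *Rela* (74.7 and 104) and *Nfkb1* (46.5 and 79.1). In RE, *Rela* (86.1) and *Nfkb1* (82.7) were close to each other and above *Nfkb2* (60.5). *Relb* stood at 13.1, 16.8 and 15.0 ppm per kb in E, M and RE, and *Rel* was the lowest in each group, at 1.61, 4.06 and 5.39. The place of *Nfkb1* depends on the length used, as its exons joined over all transcripts span 12.06 kb against 4.149 kb for the longest transcript. With the joined length it stood at 16.0, 27.2 and 28.5 ppm per kb, and in RE it was then below *Nfkb2* (50.7 with its joined length).

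Expressed as a share of the summed per-kb level of the 5 subunits, *Nfkb2* made up 38.7% and 37.3% in E, 36.7% and 37.4% in M, and 24.0% and 24.5% in RE. *Nfkb1* made up 20.8% and 21.7% in E, 24.3% and 24.5% in M, and 33.1% in both RE libraries. *Rela* stayed between 31.6% and 34.6% in all 6 libraries. *Rel* went from 0.621% and 0.840% in E to 2.32% and 2.01% in RE. With joined exon lengths, *Nfkb1* made up 16.4% in both RE libraries, below the 28.9% and 29.6% of *Nfkb2*, so which of them was larger in RE depends on the length. On both lengths the share of *Nfkb1* was higher and that of *Nfkb2* lower in RE than in E and M. These shares were not tested.

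**Figure D3:**
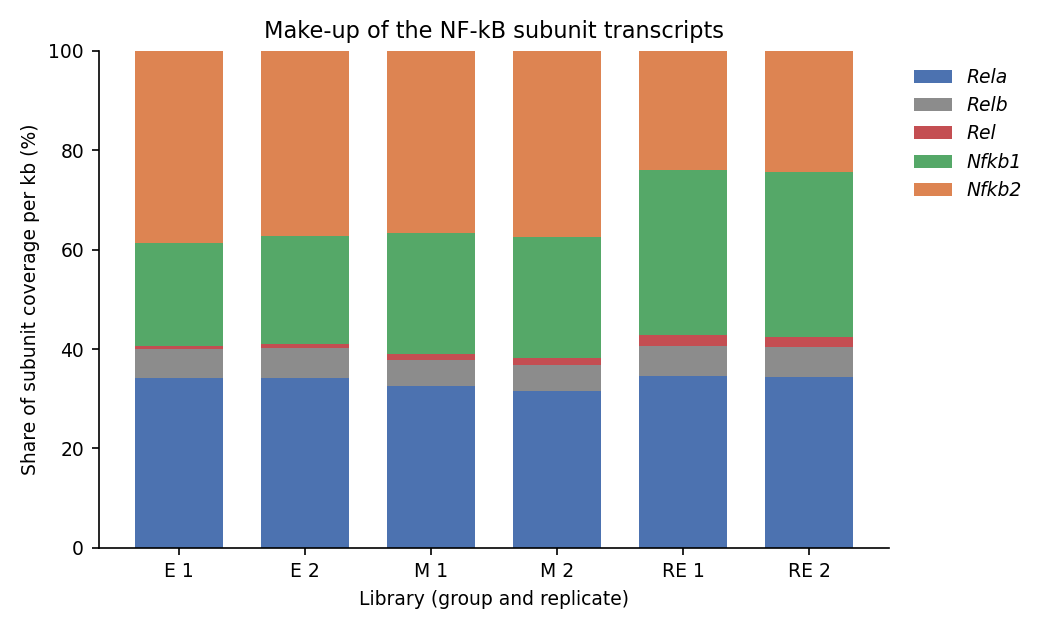
Share of each of the 5 subunits in their summed level per kb of longest transcript, in percent, for each of the 6 libraries. *Rela* holds 31.6% to 34.6% in every library, the share of *Nfkb2* is lower and that of *Nfkb1* higher in the 2 RE libraries than in the others. With joined exon lengths *Nfkb2* stays above *Nfkb1* in RE.

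Among the inhibitors, *Nfkbiz*, *Nfkbia* and *Tnfaip3* were DEGs in RE against both other groups. *Nfkbiz*, which encodes IκBζ, a nuclear co-regulator of a subset of NF-κB targets, was at 58.75 and 53.9 ppm in E, at 31.2 and 36.3 ppm in M, and at 316 and 311 ppm in RE. Both RE libraries were far above the others, and both M libraries were below both E libraries. The RE mean was 9.30 times that in M (log2 3.22, SE 0.13, limma adjusted p = 1.15e-05) and 5.57 times that in E (log2 2.48, SE 0.13, limma adjusted p = 0.000199). From E to M it fell by 0.74 on the log2 scale (SE 0.13, limma adjusted p = 0.00426), a change under the fold threshold. This change did not pass the p threshold without any 1 of the M and RE libraries. Its log2 ran from -0.85 to -0.63 with 1 library left out. Of the 4 members called in E vs. RE and the 3 in M vs. RE, it was the member whose RE calls held when any single library was left out.

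*Nfkbia*, which encodes IκBα, the inhibitor that is destroyed and made again in each round of activation, was at 121 and 89.2 ppm in E, at 166 and 165 ppm in M, and at 362 and 366 ppm in RE. The groups did not overlap and stood in the order E, M, RE. The RE mean was 2.20 times that in M (log2 1.14, SE 0.16, limma adjusted p = 0.00191) and 3.46 times that in E (log2 1.81, SE 0.16, limma adjusted p = 0.000581). E vs. M did not pass (log2 0.67, SE 0.16, limma adjusted p = 0.0145).

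*Tnfaip3*, which encodes A20, a ubiquitin-editing enzyme that shuts down signalling upstream of the IκB kinase, was at 86.2 and 159.9 ppm in E, at 92.2 and 90.1 ppm in M, and at 350 and 311 ppm in RE. The E libraries lay on either side of M, and both RE libraries were above all others. The RE mean was 3.62 times that in M (log2 1.85, SE 0.26, limma adjusted p = 0.00172) and 2.68 times that in E (log2 1.49, SE 0.26, limma adjusted p = 0.00607). E vs. M was -0.37 on the log2 scale (SE 0.26, limma adjusted p = 0.295), and without the second E library it was 0.06.

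For *Nfkbia* and *Tnfaip3* the M vs. RE call was lost when any 1 of the 4 M and RE libraries was left out. With 1 library left out, their log2 ran from 1.13 to 1.16 and from 1.77 to 1.94. In E vs. RE the calls of *Rel*, *Nfkbia* and *Tnfaip3* were lost without either RE library. There the log2 ran from 1.47 to 2.05, from 1.59 to 2.03 and from 1.04 to 1.94 with 1 library left out. The E vs. RE call of *Tnfaip3* was also lost without either M library. M is not a group of that comparison, but the spread, the scaling and the filter are shared by all libraries.

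*Nfkbie* and *Bcl3* did not follow these 3 genes. *Nfkbie*, the gene of IκBε, a second cytoplasmic inhibitor, was at 19.1 and 24.9 ppm in E, at 42.5 and 43.6 ppm in M, and at 27.4 and 29.6 ppm in RE. It was highest in M, and the rise from E to M (log2 0.98, SE 0.17, limma adjusted p = 0.00307) passed the p threshold but not the fold threshold. It did not pass without any 1 of the M and RE libraries (limma adjusted p from 0.012 to 0.0373). With scaling by library totals only, E vs. M was at a log2 of 0.68 and did not pass (limma adjusted p = 0.0118). With only the 2 groups fitted it did not pass either (limma adjusted p = 0.0121). M vs. RE was -0.60 (SE 0.17, limma adjusted p = 0.0299) and E vs. RE 0.38 (SE 0.17, limma adjusted p = 0.117). *Bcl3*, a nuclear IκB protein that binds p50 and p52 dimers, was at 10.9 and 10.8 ppm in E, at 13.3 and 12.5 ppm in M, and at 10.5 and 12.8 ppm in RE. Its RE libraries overlapped both other groups, and its E vs. RE difference was 0.10 on the log2 scale (95% interval -0.29 to 0.49). In *Bcl3*, 6.51% of exon bases overlap a gene on the opposite strand.

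Counted together, 1 of the 10 genes was a DEG higher in M in E vs. M (*Rel*), beside 8.58% of all genes tested, and 0 were lower, beside 8.39%. With the limma p before adjustment under 0.05, 7 of the 10 were higher in M, beside 25.9% of all genes, and 1 was lower, beside 25.1%. In M vs. RE, 3 were DEGs higher in RE (*Nfkbia*, *Nfkbiz* and *Tnfaip3*), beside 8.08% of all genes, and 0 were lower, beside 4.79% (at an unadjusted limma p under 0.05, 3 higher and 2 lower, beside 22% and 20.7% of all genes). In E vs. RE, 4 were DEGs higher in RE (these 3 and *Rel*), beside 6.2%, and 0 were lower, beside 3.17% (at an unadjusted limma p under 0.05, 5 higher and 1 lower, beside 23.7% and 19.7% of all genes). M vs. RE and E vs. RE share the RE libraries, and E vs. M shares a group with each, so the 3 counts are not separate evidence. Of all DEGs, 50.55% in E vs. M and 62.77% in M vs. RE were in the higher direction. Scaling by library totals alone moved these shares to 30.48% and 73.75%, and moved the median of all genes to -0.29 and 0.18.

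At an adjusted p below 0.01 with no minimum fold, a threshold added after the data were seen, 3 of the 10 were higher in M in E vs. M (*Rel*, *Nfkb1* and *Nfkbie*), beside 12.8% of all genes, and 1 was lower (*Nfkbiz*), beside 11.2%. Against M, 3 were higher in RE, beside 9.45%, and 1 was lower (*Nfkb2*), beside 7.09%. In E vs. RE, 5 were higher in RE, beside 8.31%, and 0 were lower, beside 4.73%. The median log2 fold change of the 10 genes was 0.51 in E vs. M against 0.00 for all genes tested, -0.04 in M vs. RE against -0.02, and 0.61 in E vs. RE against 0.01. The M vs. RE median near 0 covers values from -0.99 (*Nfkb2*) to 3.22 (*Nfkbiz*).

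**Figure D4:**
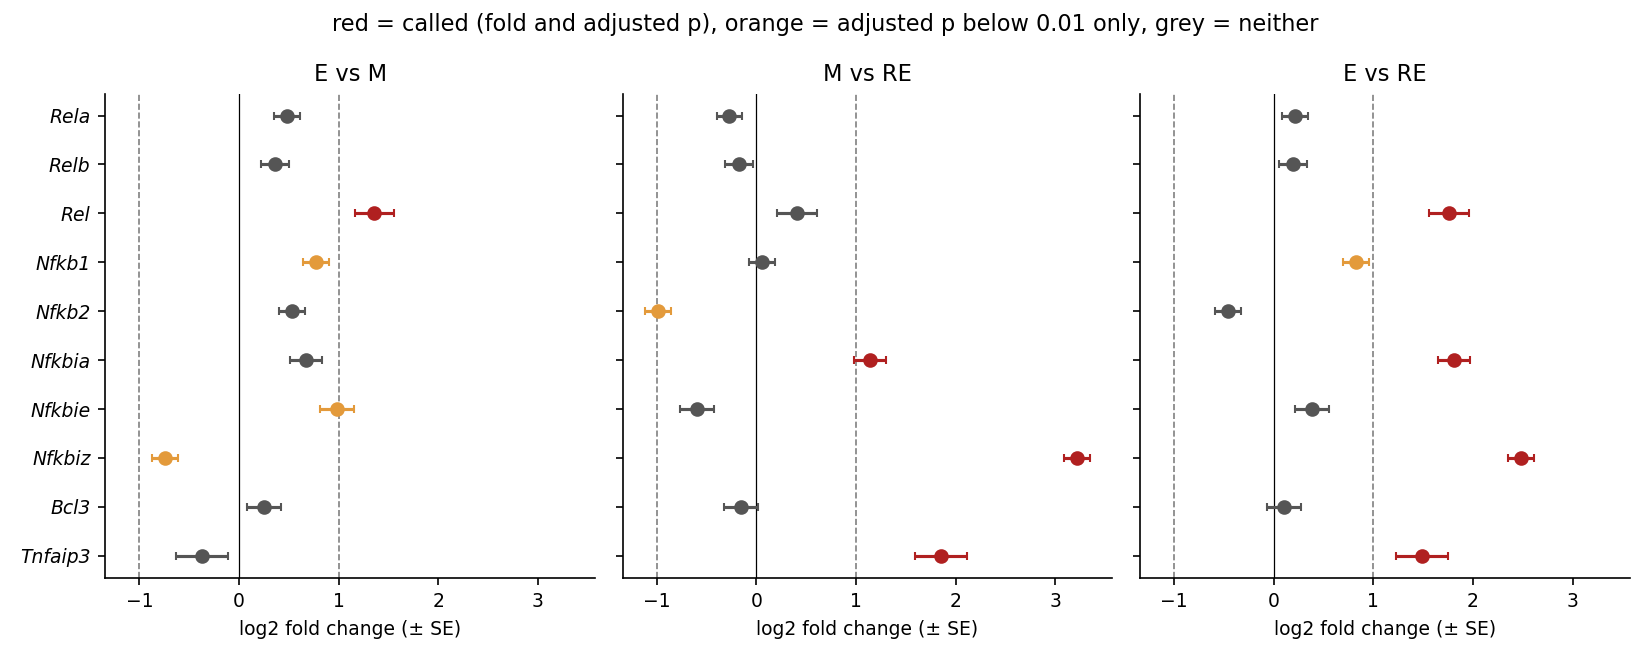
Log2 fold change of each of the 10 genes in each of the 3 comparisons, with bars of 1 SE from limma. Values above 0 mean a higher level in the group named second. *Nfkbiz* reaches 3.22 in M vs. RE while *Nfkb2* stands at -0.99.

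Ratios of 2 genes within a library do not depend on how libraries are scaled. The ratios below were chosen after the values were seen, are ratios of coverage without regard to length, and were not tested. *Nfkbia* to *Rela* stood at 0.629 and 0.419 in E, at 0.569 and 0.602 in M, and at 1.59 and 1.52 in RE. The E and M libraries overlapped in this ratio and the RE libraries stood above both. *Nfkbiz* to *Rela* stood at 0.305 and 0.253 in E, at 0.107 and 0.133 in M, and at 1.39 and 1.30 in RE. *Nfkb2* to *Nfkb1* stood at 1.73 and 1.59 in E, at 1.40 and 1.42 in M, and at 0.670 and 0.684 in RE, so that the *Nfkb1* coverage was the larger only in the RE libraries. *Nfkbia* to *Nfkbie*, the genes of 2 cytoplasmic inhibitors, stood at 6.36 and 3.58 in E, at 3.91 and 3.78 in M, and at 13.2 and 12.4 in RE. Among the nuclear IκB proteins, *Nfkbiz* to *Bcl3* stood at 5.41 and 4.98 in E, at 2.34 and 2.91 in M, and at 30.1 and 24.3 in RE.

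For each member that was a DEG in some comparison, the genes with the most similar values over the 6 libraries were found by Euclidean distance of centred log2 values, among the 10096 genes whose log2 value averaged 2 or more. For *Rel* these were *Slc36a4* (distance 0.164), *Prickle1* (0.185) and *Pld1* (0.232). For *Nfkbia* they were *Nqo1* (0.289), *Tnip3* (0.298), itself a partner of A20, and *Tspan17* (0.305). For *Nfkbiz* they were *Atp6v0a4* (0.286), *Kcnh2* (0.413) and *Chrdl1* (0.522). For *Tnfaip3* they included *Dock4* (0.359) and *Il4i1* (0.371). With 6 libraries in 3 groups, such likeness describes mainly the 3 group means.

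Upstream of the subunits, 23 kinases and adaptors of the pathway were all in the table and all tested. In E vs. M, 2 were DEGs higher in M and 0 were lower, beside 8.58% and 8.39% of all genes. With scaling by library totals only, 0 were higher and 1 lower, so the direction of this count depends on the scaling. These were *Tab3* (log2 1.38, SE 0.30, limma adjusted p = 0.00873), which links the kinase TAK1 to ubiquitin chains, and *Birc3* (log2 1.20, SE 0.14, limma adjusted p = 0.000494), the ubiquitin ligase cIAP2. No kinase or adaptor was a DEG by limma in M vs. RE, beside 8.08% of all genes higher and 4.79% lower. At an unadjusted limma p under 0.05, 5 were higher and 4 lower, beside 22% and 20.7%. None was a DEG in E vs. RE, beside 6.2% and 3.17% (unadjusted, 9 higher and 1 lower, beside 23.7% and 19.7%). The median log2 fold change was 0.29, -0.04 and 0.26 in the same order of comparisons, beside 0.00, -0.02 and 0.01 for all genes tested. With library totals only, 2 were higher in M vs. RE. The E vs. M count went from 2 to 1 without the first E, the second M or either RE library, to 0 without the first M library, and to 5 without the second E library. The E vs. RE count went from 0 to 2 without either E library.

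Of 16 other inhibitors, 15 were tested, and *Irak3* was at the floor in all 6 libraries. In E vs. M, *Itch*, a ubiquitin ligase that acts with A20, was the only DEG (log2 1.09, SE 0.15, limma adjusted p = 0.00135), beside 8.58% of all genes higher and 8.39% lower. With library totals only, 0 were higher and 1 lower in E vs. M, and 1 was higher in M vs. RE. No other inhibitor was a DEG by limma in M vs. RE, beside 8.08% of all genes higher and 4.79% lower. At an unadjusted limma p under 0.05, 4 were higher and 1 lower, beside 22% and 20.7%. In E vs. RE, 2 were DEGs higher in RE and 0 were lower, beside 6.2% and 3.17% of all genes. *Tnip3* was at 5.415 and 3.78 ppm in E and at 13.3 and 13.0 ppm in RE (log2 1.52, SE 0.21, limma adjusted p = 0.00249). *Zc3h12a*, the ribonuclease Regnase-1 that cleaves inflammatory mRNAs, was at 27.5 and 26.9 ppm in E and at 61.6 and 67.7 ppm in RE (log2 1.24, SE 0.14, limma adjusted p = 0.00111). The call in E vs. M was lost without the first E library or either M library. The M vs. RE count went from 0 to 1 without the second E library. Of the 2 in E vs. RE, 1 was left without either M library and 0 without either RE library. The median of the 15 was 0.18, 0.15 and 0.55 in the same order.

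Of 30 known NF-κB target genes, 29 were tested, and they moved in both directions. In E vs. M, 6 were DEGs higher and 9 lower in M, beside 8.58% and 8.39% of all genes (median log2 fold change -0.46). The largest falls were those of *Lcn2* (log2 -5.23, SE 0.22, limma adjusted p = 9.79e-06), the secreted siderophore-binding protein lipocalin 2, and of the chemokine genes *Cxcl3* (-3.32) and *Cxcl5* (-2.97). The largest rises were those of *Vcam1* (2.64), an adhesion molecule, *Plau* (1.98), the urokinase protease, and *Cd44* (1.93), the hyaluronan receptor.

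In M vs. RE, 9 targets were higher and 4 lower in RE, beside 8.08% and 4.79% of all genes (median 0.41). *Cxcl2* stood at 0.243 and 0.210 ppm in M and at 9.47 and 10.4 ppm in RE (log2 4.94, SE 0.26, limma adjusted p = 2.15e-05). *Lcn2* (log2 4.42) and the neutrophil chemokine *Cxcl1* (log2 3.65) were the next largest. *Plau* (-2.90), *Ptgs2* (-2.08), which encodes cyclooxygenase 2, and *Cd44* (-1.80) fell most.

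In E vs. RE, 6 targets were higher and 1 lower in RE, beside 6.2% and 3.17% of all genes (median 0.04). At an unadjusted limma p under 0.05, 7 were higher and 9 lower, beside 23.7% and 19.7% of all genes. Among the DEGs higher in RE, the largest differences were those of *Cxcl2* (log2 2.75, SE 0.26, limma adjusted p = 0.000659), of the chemokine *Cx3cl1* (2.41) and of the interferon regulatory factor *Irf1* (1.61). *Irf1* was at 75.1 and 69.7 ppm in E, at 80.1 and 78.8 ppm in M, and at 234 and 208 ppm in RE, so its RE libraries stood apart from the rest. The gene that was lower was *Csf3* (-1.91), which encodes the granulocyte growth factor G-CSF. Out of 7 DEGs in E vs. RE, 4 were left without either M library, 1 without the first RE library and 2 without the second, and there were 11 without the first E library.

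Immediate-early genes, which respond within minutes to serum and other stimuli by routes that do not need NF-κB, were set beside the members. Their summed level over 13 genes was 1095 and 873 ppm in E, 398 and 355 ppm in M, and 963 and 1015 ppm in RE. In E vs. M, 0 were DEGs higher and 10 lower, beside the 8.58% and 8.39% above, the largest falls being *Fos* (-3.80), *Fosb* (-3.37) and *Zfp36* (-2.42). In M vs. RE, 9 were higher and 0 lower in RE, beside 8.08% and 4.79% of all genes, led by *Zfp36* (4.08), *Egr3* (2.42) and *Egr2* (2.21). In E vs. RE, 2 were higher (*Zfp36*, 1.66, and *Egr2*, 1.02) and 3 lower (*Fosb*, -2.75, *Fos*, -1.74, and *Atf3*, -1.55), beside 6.2% and 3.17% of all genes. These 5 calls became 3 without either M library, 0 without the first RE library and 1 without the second, and the 10 in E vs. M became 5 without the second M library. The sum was thus low in M, as *Nfkbiz* was, and its part in the *Nfkbiz*, *Nfkbia* and *Tnfaip3* differences was not tested. In RE both sums lay between those of the 2 E libraries, but genes of the list went both ways. *Zfp36* stood at 54.9 and 39.2 ppm in E and at 146 and 149 ppm in RE, above both E libraries like these 3 members. *Fos* stood at 223 and 156 ppm in E and at 60.3 and 51.7 ppm in RE.

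**Figure D5:**
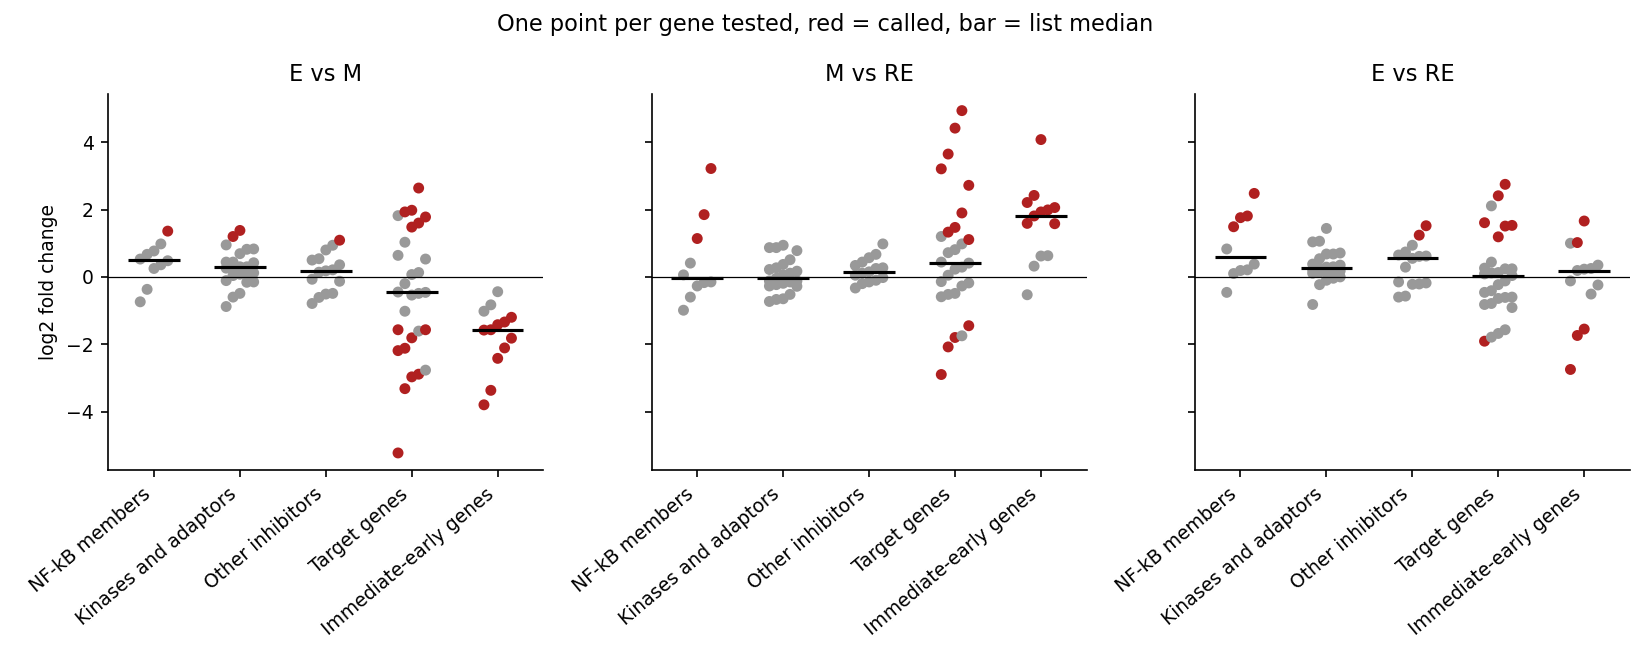
Log2 fold changes of the 10 members and of the genes tested in 4 lists (kinases and adaptors, other inhibitors, target genes and immediate-early genes) in each of the 3 comparisons. Each point is 1 gene, red points are DEGs and the bar is the median, which for immediate-early genes is -1.57 in E vs. M and 1.81 in M vs. RE.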

How the data were processed

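RNA of E, M and RE stages of EpH4 cells was sequenced in 2 libraries each. The authors mapped unique reads to NCBI-m37 with Bowtie and TopHat2 and deposited a whole number for each gene, a coverage signal in sequenced bases that was not normalized. The summing step, its annotation and the tool versions are not given in the sources used here. Because coverage is not a read count, limma replaced the edgeR test of the study.

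Values were scaled by TMM without weights (30% of log ratios and 5% of levels trimmed) to ppm of the library total. The filter asked for 500 bases or more in 2 libraries or more. limma 3.58.1 in R 4.3.3 was fitted to log2(ppm + 0.1) over all 6 libraries, by group only, with a trend, and p-values were adjusted by Benjamini-Hochberg over all 13893 genes. DEGs had an adjusted p below 0.01 and a log2 fold change beyond 1 in either direction. Fold changes are on the log2(ppm + 0.1) scale. The script was tested on simulated data. The libraries held 35782513 to 47928557 reads' worth of 50 bases, with 2 libraries in each group. The sample notes speak of RNA from 3 replicas, of which 2 were sequenced.

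Besides the 10 members, the genes named are the called genes with the largest change in each direction in each list (up to 3 each) and the 3 genes nearest to each called member. An item covered by this rule is not reported here. The members and lists were chosen with earlier results of these data known. Within the lists, *Tab1*, *Tab2*, *Tab3*, *Otulin*, *Epcam* and *Adgre1* were matched through older symbols, and *Tyrobp* and *Emcn* were not matched. Transcript lengths came from GENCODE vM21 (GRCm38), a newer annotation than the build of the files. Alternatives covered scaling, filter, pseudocount, the libraries fitted, replicate block, array weights, thresholds and leaving out each library. The threshold without a fold minimum was added after the data were seen.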

Additional observations from a re-analysis of the deposited data

How the results depend on the processing

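The log2 fold changes of the 10 genes in 3 comparisons were followed under alternatives. Of these values, 423 kept their direction and their status as DEG or not, 20 lost the call, 2 gained it and 5 turned direction. A change under the fold threshold could cross the p threshold and still be among the 423, as *Nfkb1* did in E vs. M. Those that turned were never called: with library totals only, *Bcl3* was at -0.05 in E vs. M, and *Relb* was at 0.04 and *Bcl3* at 0.05 in M vs. RE. With 1 library left out, *Tnfaip3* ran from -0.81 to 0.06 in E vs. M (0.06 without the second E library), and *Bcl3* from -0.05 to 0.24 in E vs. RE (-0.05 without the second RE library). The count of members called in E vs. M was 2 with library totals only (*Rel* and *Nfkbiz*), 4 with a fold change above 1.5 and 4 with no fold minimum, and 0 to 2 with 1 library left out. With 1 library left out it was 1 to 3 in M vs. RE and 1 to 4 in E vs. RE. *Tnfaip3* lost its E vs. RE call with no filter (limma adjusted p = 0.0125) and with only the 2 groups fitted (0.0247). The number of all DEGs was 2358, 1789 and 1302 in E vs. M, M vs. RE and E vs. RE. With 1 library left out it ran from 945 to 3362, from 683 to 2337 and from 44 to 2348, and with only the 2 groups fitted it was 525 in E vs. RE. The cause was not tested.

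The replicate numbers are shared by the groups, but same-numbered libraries deviated together only weakly (correlation 0.27 between E and M, 0.12 between M and RE, 0.06 between E and RE), and nothing says that a number marks a shared culture. With the replicate block, 1, 3 and 4 members were called in the 3 comparisons, as without it, and 2431, 1830 and 1284 genes. Among the lists, the block moved kinases and adaptors in E vs. RE from 0 to 1.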
